A study of Mus musculus with 2 samples.

Results

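The genes described here are 10 late differentiation genes of stratified epithelium: Cnfn, Cdsn, Dmkn, Krtdap, Sbsn, Ivl, Tgm1, Lce3a, Lce3f and Krt10. They were taken by name from the 17891 genes of a single-cell count table of mouse corneal epithelium, and all 10 were present. The small proline-rich (Sprr) genes, which also feed the envelope, were kept out by that rule. The animals were 7 males of the mouse strain C57BL/6J at 10 weeks of age, in which the extraorbital and intraorbital lacrimal glands of the right side were excised to dry the right eye, and corneas were taken on day 9. The control library pooled the epithelium of 7 left eyes, and the dry eye library pooled that of 6 right eyes after 1 injured eye had been excluded. All animals had been operated on, so the 2 pools share their donors, and treatment and side of the eye cannot be told apart. Each group was 1 pooled library, so no test between groups was possible. Levels are given as counts of unique molecular identifiers (UMIs) and as that count scaled to the total UMIs of the cells in question (CPM, the usual counts per 1000000), and ratios are dry eye over control. Intervals are exact at 95% and account for counting error alone.

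The cornified envelope is a layer of cross-linked protein laid down under the membrane of keratinocytes at the end of their differentiation. Transglutaminases join involucrin, small proline-rich proteins and late cornified envelope proteins into this layer, while corneodesmosin holds the dying cells together and kallikreins later cut it so that cells can be shed. The corneal surface is normally a moist, non-keratinized epithelium of basal, wing and squamous cells, and epidermis-like differentiation of it is known from severe dryness. The set is wider than the structural envelope: Krt10 encodes an intermediate filament keratin, and Dmkn, Krtdap and Sbsn encode secreted proteins of the upper epidermis.

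The control library held 17465 cells and 191493194 UMIs, with a median of 8248 UMIs per cell, and the dry eye library 16420 cells and 207030777 UMIs, with a median of 9086.5. The deposited class names were LSC, TAC1, TAC2, Basal, Wing, Squam, Conj and Immune, and LSC*, TAC1*, TAC2*, Wing* and Squam* with an asterisk, which no label or file header used here explains. Starred classes held 172 control cells, 0.985% of the library, and 1793 dry eye cells, 10.9%, so the ratio of each gene over all cells is also given without them. Where classes are put in order, the order covers the 8 control and 12 dry eye classes with at least 50 cells. The summed level of 4 corneal markers, led by Krt12, was 39003 CPM in control and 34596 CPM in dry eye. The summed level of 5 conjunctival markers, led by Krt13, was 2750 and 4092 CPM. Within Wing cells those conjunctival markers were at 1646 and 2905 CPM and within Squam cells at 5395 and 8386 CPM, and their part in the differences below was not tested. The summed level of 5 markers of lid epidermis (Krt1, Krt2, Krt77, Lor and Flg) was 8.25 CPM in control and 7.06 CPM in dry eye. Krt1 made up most of that sum, with 1245 of 1580 UMIs in control and 1077 of 1462 in dry eye, and the markers differed in direction. Loricrin (Lor), the main envelope protein of epidermis, had 69 and 110 UMIs, Flg had 5 and 84, Krt77 had 253 and 187, and Krt2 had 8 and 4. The libraries shared 74 cell barcodes.

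Over all cells, 6 of the 10 genes were at least 2-fold higher in the dry eye library and 0 were at least 2-fold lower. They were Dmkn, Cnfn, Cdsn, Sbsn, Krtdap and Lce3a. Among all 13100 genes with at least 100 UMIs, 3.02% were that much higher and 0.847% that much lower. The median log2 ratio of the 10 genes was 1.74, against -0.07 over all those genes. With starred classes left out, these 6 genes again passed the 2-fold limit upward and none passed it downward, against 1.87% and 0.579% of 12949 genes. The median log2 ratio was then 1.35, against -0.08. Lce3a lay just inside the 2-fold limit, at a ratio of 2.11, and Tgm1 just outside it, at 1.89.

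**Figure D1:**
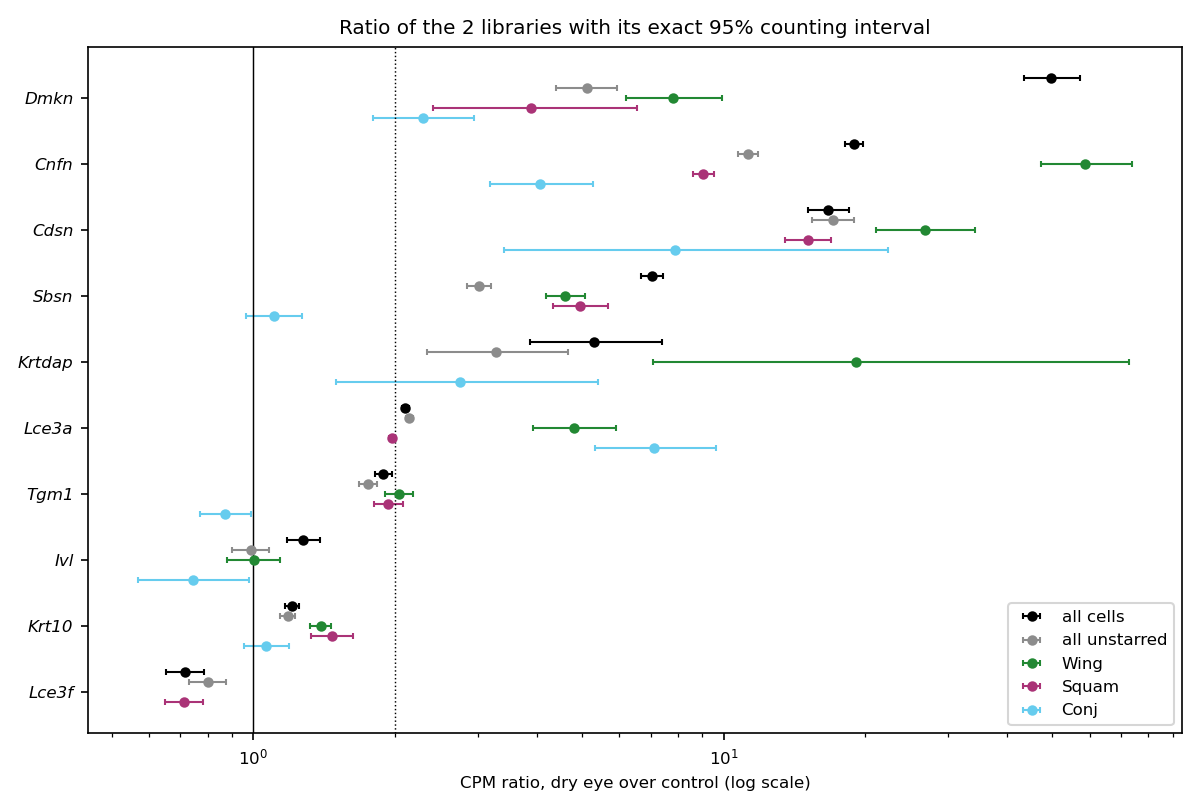
Ratio of dry eye over control CPM for each gene on a log axis, over all cells, without the starred classes, and within the classes Wing, Squam and Conj. Points are ratios, bars are exact 95% counting intervals, the solid line marks a ratio of 1 and the dotted line a ratio of 2. A class is drawn where the gene had at least 50 UMIs over both libraries. Dmkn has the highest ratio over all cells, 49.7, and Lce3f the lowest, 0.716.

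Cnfn, which encodes cornifelin, a small cysteine-rich envelope component, lies at chr7:25367620-25369724 on the minus strand (build GRCm38, GENCODE annotation). It had 2142 UMIs in control and 43838 in dry eye, or 11.2 and 212 CPM, a ratio of 18.9 (18.1 to 19.8). It was 11.3 (10.7 to 11.8) with the starred classes left out. In control the gene was largely a Squam transcript, with 77.8% of its UMIs in Squam cells at 48.2 CPM. Among the classes with at least 50 cells, Conj followed at 3.73 CPM and Wing at 0.984 CPM. In dry eye Squam cells stood at 436 CPM, a ratio of 9.05 (8.61 to 9.53), and Wing cells at 57.8 CPM, a ratio of 58.7 (47.2 to 73.9) that rested on 83 control UMIs. The dry eye level of Wing cells thus lay above the control level of Squam cells. Basal cells had 2 UMIs of Cnfn in control and 26 in dry eye, or 0.0742 and 1.32 CPM.

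In dry eye, starred cells held 24584 Cnfn UMIs and unstarred cells 19254. Squam* cells stood at 2317 CPM and Wing* cells at 1360 CPM, and the Wing* cells held 36.6% of the library's Cnfn UMIs. The control library had Cnfn in its few starred cells too: its 12 Wing* cells held 312 UMIs in 10 of the 12 cells, at 1611 CPM, above the control Squam level. Within Wing* cells the ratio of dry eye over control was 0.844 (0.755 to 0.947), with only those 12 cells on the control side. They are fewer than the minimum set for comparison within a class, so no direction was drawn from that ratio. Among Conj cells the ratio was 4.07 (3.18 to 5.28), but 1 control cell held 45 of the 76 control UMIs, and without the highest cell of each library the ratio was 8.56.

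The number of Cnfn cells and the amount per cell were both higher. Among Squam cells 413 of 3056 control cells (13.5%) and 1492 of 2973 dry eye cells (50.2%) had a Cnfn UMI, with 4.04 and 10.2 UMIs per such cell. Because cells with more UMIs in all are more often positive, each cell was also thinned at random to 3000 UMIs. With thinning, Cnfn was found in 6.39% of control Squam cells (5.54% to 7.33%) and 36.2% of dry eye Squam cells (34.5% to 38.02%). In Basal cells, a class below the differentiating layers that is given for comparison, the thinned shares were 0.0536% and 0.456%. Median depths were 5695 and 6126 UMIs in Basal cells, against 9342.5 and 9518 in Squam cells.

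**Figure D2:**
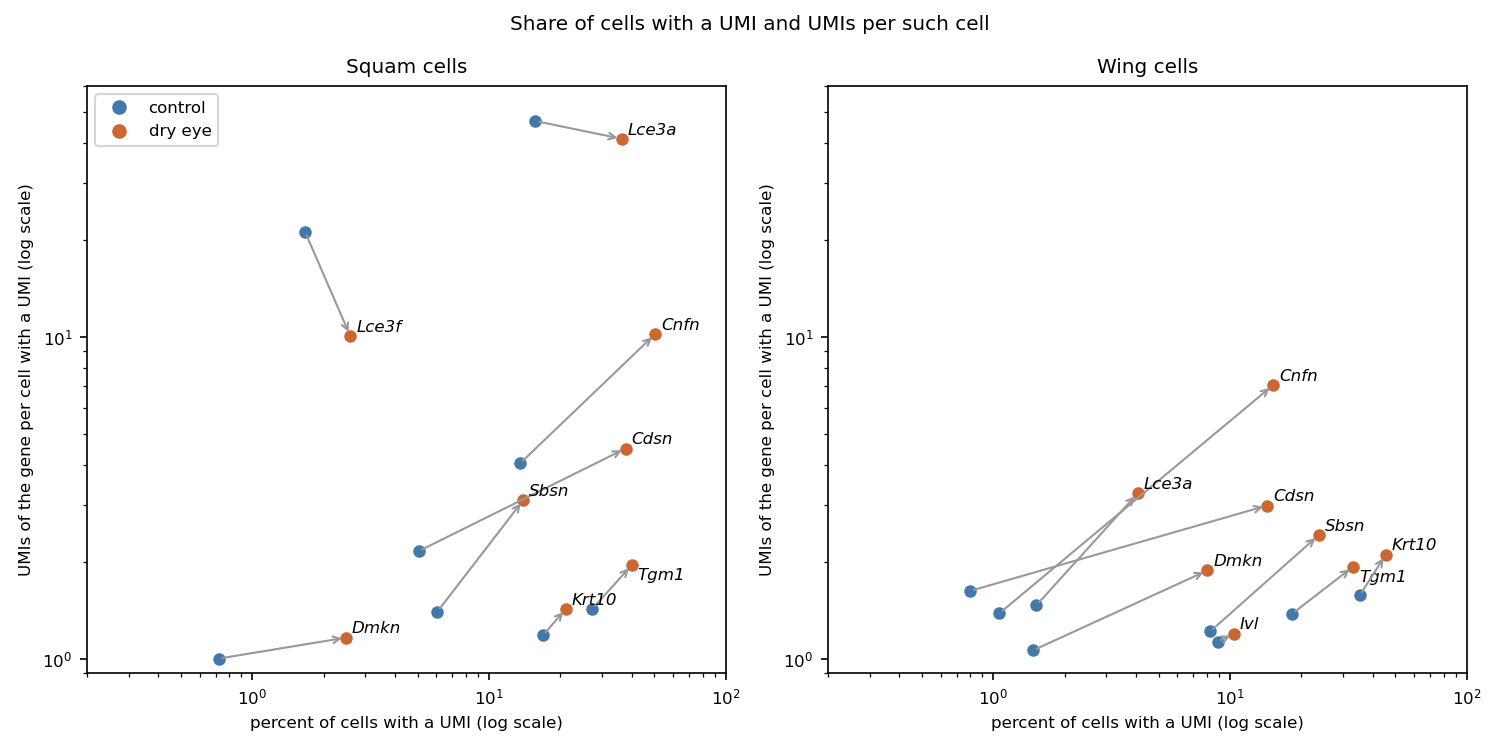
Percent of cells with a UMI of each gene (horizontal, log scale) against UMIs of the gene per such cell (vertical, log scale), for Squam cells on the left and Wing cells on the right, without thinning. Genes with at least 10 such cells in each library are drawn. Arrows run from control to dry eye. Cnfn in Squam cells moves both right and up, from 13.5% to 50.2% of cells and from 4.04 to 10.2 UMIs, while Lce3a moves right, from 15.7% to 36.3%, and slightly down, from 46.7 to 41.1 UMIs.

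Cdsn encodes corneodesmosin, the adhesive protein of the corneodesmosomes that link cornified cells, and lies at chr17:35552128-35557180 on the plus strand. It had 413 UMIs in control and 7438 in dry eye, or 2.16 and 35.9 CPM, a ratio of 16.7 (15.1 to 18.4). Leaving out the starred classes barely moved it, to 17.1 (15.4 to 18.9), and Wing* cells held 8.64% of the dry eye UMIs. Squam cells stood at 9.60 CPM in control and 145 CPM in dry eye, a ratio of 15.1 (13.5 to 16.9). Wing cells stood at 0.866 and 23.1 CPM, a ratio of 26.7 (21.1 to 34.3). The dry eye levels of Squam* (60.5 CPM) and Wing* cells (54.5 CPM) were lower than that of Squam cells and did not differ beyond their counting intervals. In Basal, LSC and TAC1 cells of control no Cdsn UMI was found, and dry eye had 7, 1 and 1. The thinned share of Squam cells with Cdsn was 2.48% in control and 23.1% in dry eye, against 0 of 3729 and 0.0759% of Basal cells, where a count of 0 allows up to 0.0805%.

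Sbsn, Dmkn and Krtdap encode suprabasin, dermokine and keratinocyte differentiation-associated protein, which upper epidermal keratinocytes secrete. They lie side by side on the plus strand of chromosome 7, Sbsn at chr7:30751471-30756134, Dmkn at chr7:30763756-30781063 and Krtdap at chr7:30787896-30791097, within 39.6 kb and with no other protein-coding gene between neighbours. Because these neighbours were all higher in dry eye, the sequence around their start sites is shown, together with that of Ivl, the other gene whose window held the same motif. Each line gives 140 bases before the RefSeq start site and the first 10 after it, on the gene's strand, build GRCm38.p6. Capitals mark matches to TGANTCA, an AP-1-type motif in which N stands for any base, so that the pattern reads alike on both strands.
Sbsn, chr7:30751331-30751480, plus strand: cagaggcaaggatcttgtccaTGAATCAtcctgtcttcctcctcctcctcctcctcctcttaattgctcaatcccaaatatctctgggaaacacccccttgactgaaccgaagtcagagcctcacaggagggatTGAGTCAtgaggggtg
Dmkn, chr7:30763616-30763765, plus strand: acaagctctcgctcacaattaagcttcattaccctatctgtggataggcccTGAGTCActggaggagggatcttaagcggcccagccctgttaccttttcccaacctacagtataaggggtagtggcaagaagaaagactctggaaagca
Krtdap, chr7:30787765-30787914, plus strand: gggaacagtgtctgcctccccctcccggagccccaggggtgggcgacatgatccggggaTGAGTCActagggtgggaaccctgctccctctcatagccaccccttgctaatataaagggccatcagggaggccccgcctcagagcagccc
Ivl, chr3:92573726-92573875, minus strand: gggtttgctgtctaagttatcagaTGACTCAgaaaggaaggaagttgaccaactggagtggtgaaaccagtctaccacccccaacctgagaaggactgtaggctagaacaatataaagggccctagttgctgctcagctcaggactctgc

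All 10 genes had a RefSeq window of 250 bases before to 50 after a start site, and TGANTCA was in 4 of them. The same letters were in 7.81% of 32817 such windows. The first base of the match lay 89 bases upstream of the start in Dmkn, 81 in Krtdap and 116 in Ivl, and Sbsn held 2 matches, at 119 and 6 bases. TATAAA on either strand was in 3 windows (Krtdap, Ivl and Krt10) against 13.6%, and GGGNGTGG, a KLF-type motif, on either strand in 2 (Cnfn and Ivl) against 17.6%. AACCNGTT, a grainyhead-type motif, was in 0 of the 10 windows against 2.08%. These motifs were chosen after the windows had been seen, and a match in letters is a description of the window and not of binding. Ivl, with a match, was among the genes with the lowest ratios, and Cnfn and Cdsn, without one, were among those with the highest.

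Dmkn had 216 UMIs in control and 11611 in dry eye, or 1.13 and 56.1 CPM, a ratio of 49.7 (43.5 to 57.1), the highest of the 10. Most of it came from 1 class: the 446 Wing* cells of dry eye held 79.7% of the library's Dmkn UMIs at 785 CPM. With starred cells left out it was 5.11 (4.41 to 5.94). The class LSC*, with 85 dry eye cells, stood next at 616 CPM (579 to 656), and 78 of its cells (91.8%) had a Dmkn UMI. The 12 Wing* and 6 LSC* cells of control had 0 Dmkn UMIs, which allows up to 15.5 and 48.1 CPM. After thinning, 71.2% of the LSC* cells (60.05% to 80.8%) and 48.5% of the Wing* cells (43.8% to 53.3%) of dry eye held Dmkn, against 0.152% of Basal cells. Median depths were 16145 UMIs in LSC*, 17483.5 in Wing* and 6126 in Basal cells.

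Among unstarred classes Dmkn was low in both libraries. It stood at 1.04 and 8.14 CPM in Wing cells, a ratio of 7.80 (6.21 to 9.90), and at 0.636 and 2.47 CPM in Squam cells, a ratio of 3.89 (2.41 to 6.53). In TAC2 cells it had 4 and 125 UMIs, a ratio of 21.7 with a wide interval (8.26 to 80.8). In Conj cells it stood at 4.41 and 10.1 CPM, a ratio of 2.29 (1.80 to 2.95). In LSC cells, the highest class of control, it stood at 5.99 and 6.79 CPM, a ratio of 1.13 (0.523 to 2.72) from 9 and 29 UMIs. Its place among the classes therefore differed from those of Cnfn and Cdsn: for Dmkn, Squam cells were at rank 4 of 8 classes in control and at rank 10 of 12 in dry eye.

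Sbsn had 1491 UMIs in control and 11336 in dry eye, or 7.79 and 54.8 CPM, a ratio of 7.03 (6.66 to 7.43), and 3.02 (2.85 to 3.21) without the starred classes. Wing* cells held 57.6% of the dry eye UMIs, at 553 CPM, with LSC* at 129 CPM and Squam* at 91.8 CPM. Wing cells stood at 6.71 and 30.9 CPM, a ratio of 4.60 (4.19 to 5.06), and Squam cells at 7.49 and 37.1 CPM, a ratio of 4.95 (4.33 to 5.68). LSC and Conj cells, the highest classes in control, did not share this: LSC cells stood at 23.3 and 14.3 CPM, a ratio of 0.614 (0.399 to 0.958) from 35 and 61 UMIs, and Conj cells at 17.95 and 19.9 CPM, a ratio of 1.11 (0.965 to 1.27). Without the 10 LSC cells of each library with most Sbsn, the LSC ratio was 0.815. Of the sequence words of 50 bases near the 3' end of Sbsn transcripts, 20.8% also occurred in the overlapping same-strand gene Tmem147os. The Sbsn counts are therefore uncertain, by an amount that this share of words does not measure.

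Krtdap was the rarest of the 10. It had 47 UMIs in 21 control cells and 269 UMIs in 117 dry eye cells, or 0.245 and 1.30 CPM, a ratio of 5.29 (3.87 to 7.38). Without the starred classes the ratio was 3.28 (2.34 to 4.66). A single LSC cell held 19 of the 47 control UMIs, and without the highest cell of each library the ratio over all cells was 8.36. Wing* cells held 42.8% of the dry eye UMIs, at 9.75 CPM. Wing cells had 4 and 57 UMIs, and Conj cells 14 and 49. Without the 10 highest Wing cells of each library, 0 and 12 UMIs were left in that class.

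Tgm1 encodes transglutaminase 1, the membrane-bound enzyme that cross-links envelope proteins, and lies at chr14:55700009-55713926 on the minus strand, overlapped on the other strand by Gm49067. It had 3176 UMIs in control and 6492 in dry eye, or 16.6 and 31.4 CPM, a ratio of 1.89 (1.81 to 1.97), and 1.75 (1.67 to 1.83) without the starred classes. Squam cells had the highest unstarred level in both libraries. They stood at 34.5 and 66.9 CPM, a ratio of 1.94 (1.81 to 2.08), and Wing cells at 16.9 and 34.5 CPM, a ratio of 2.04 (1.91 to 2.18). Conj cells lay between them in control, at 24.5 CPM, and below both in dry eye, at 21.4 CPM, a ratio of 0.872 (0.772 to 0.987). TAC2 cells stood at 1.36 and 4.47 CPM, a ratio of 3.28 (1.95 to 5.79) from 18 and 85 UMIs. In dry eye Squam* (85.2 CPM), LSC* (71.1 CPM) and Wing* cells (68.8 CPM) were the highest, each with an interval that overlapped the next.

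Ivl encodes involucrin, an early scaffold of the envelope and a substrate of transglutaminase 1, and lies at chr3:92570902-92573735 on the minus strand. It had 1010 UMIs in control and 1395 in dry eye, or 5.27 and 6.74 CPM, a ratio of 1.28 (1.18 to 1.39). Without the starred classes the ratio was 0.988 (0.903 to 1.08), so the summed unstarred cells did not show the higher level. Unstarred classes differed in direction. TAC2 cells stood at 5.15 and 8.46 CPM, a ratio of 1.64 (1.23 to 2.22) from 68 and 161 UMIs. The ratio was under 1 in Conj cells, at 0.746 (0.568 to 0.979), and in Squam cells, at 0.280 (0.118 to 0.600) from 32 and 9 UMIs. Wing cells stood at 6.70 and 6.71 CPM, a ratio of 1.001 (0.881 to 1.14). Unlike Cnfn, Cdsn, Lce3a and Lce3f, which had their highest unstarred level in Squam cells, Ivl was at its lowest there. Squam cells were the lowest class of control, at 0.925 CPM, below Basal cells at 6.31 CPM. They were also the lowest of dry eye, at 0.259 CPM from 9 UMIs, below Basal cells at 7.14 CPM. Their intervals overlapped those of LSC cells in control and of Squam* cells in dry eye, the next classes up. The highest dry eye levels were those of LSC* (27.2 CPM), TAC2* (23.2 CPM) and TAC1* cells (17.8 CPM), and neighbours in that order overlapped in their intervals. In TAC1* cells, the one starred class large enough in control to compare, the level was 5.55 and 17.8 CPM, a ratio of 3.21 (1.57 to 7.63) that rested on 8 control UMIs. Among the 77 Wing* cells with an Ivl UMI the median depth was 46314 UMIs, against 15191 in the other Wing* cells.

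Lce3a and Lce3f encode late cornified envelope proteins, small cysteine-rich substrates of the cross-linking enzymes. They lie 68.1 kb apart from end to end on chromosome 3, Lce3a at chr3:92925287-92926230 on the minus strand and Lce3f at chr3:92992226-92993426 on the plus strand, with Lce3b, Lce3c, Lce3d and Lce3e between them. Of the 50-base words near their 3' ends, 21.1% for Lce3a and 43.7% for Lce3f also occurred in other Lce3 genes, so the split of reads among these copies is uncertain.

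Lce3a had 22764 UMIs in control and 51810 in dry eye, or 119 and 250 CPM, a ratio of 2.11 (2.07 to 2.14). The unstarred classes alone gave 2.15 (2.11 to 2.18). It was a Squam transcript in both libraries: Squam cells held 98.5% of its control UMIs and 85.7% of its dry eye UMIs, at 648 and 1278 CPM, a ratio of 1.97 (1.94 to 2.004). The difference lay in the number of cells. Among Squam cells 480 (15.7%) in control and 1080 (36.3%) in dry eye had an Lce3a UMI, while the UMIs per such cell were 46.7 and 41.1. After thinning the shares were 12.1% (10.9% to 13.3%) and 29.7% (28.0% to 31.4%), against 0.215% and 0.380% of Basal cells. In the other unstarred classes Lce3a was low in control, at 2.55 CPM in Conj and 1.49 CPM in Wing cells, and in dry eye stood at 18.1 and 7.17 CPM, ratios of 7.10 (5.33 to 9.65) and 4.80 (3.93 to 5.90). In Squam* cells of dry eye it stood at 889 CPM. Wing* cells stood at 635 CPM in control, from 123 UMIs in 12 cells, and at 266 CPM in dry eye. The ratio was 0.418 (0.349 to 0.505), but 12 control cells are fewer than the minimum set for comparison within a class. The summed corneal markers of Wing* cells also differed, at 10735 CPM in control and 24379 CPM in dry eye. No direction was therefore drawn from the Wing* ratio of Lce3a.

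Lce3f was the one member with a ratio under 1 over all cells. It had 1087 UMIs in control and 841 in dry eye, or 5.68 and 4.06 CPM, a ratio of 0.716 (0.653 to 0.784), and 0.800 (0.729 to 0.877) without the starred classes. A single control cell held 492 of those UMIs (45.3%), and 10 cells held 85.5%, against 58.7% in the 10 highest cells of dry eye. Without the highest cell of each library the ratio was 1.14, and without the 10 highest it was 2.03. Cells with an Lce3f UMI numbered 57 in control and 98 in dry eye. The direction of Lce3f over all cells and within Squam cells, where 99.4% of its control UMIs lay, therefore turned on 1 cell.

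Krt10 encodes keratin 10, the suprabasal keratin of epidermis, and lies at chr11:99385254-99389364 on the minus strand, overlapped on the other strand by Gm11940. It was the most evenly spread of the 10 genes. It had 5685 UMIs in control and 7420 in dry eye, or 29.7 and 35.8 CPM, a ratio of 1.21 (1.17 to 1.25), and 1.18 (1.14 to 1.23) without the starred classes. Over the 8 control classes with enough cells its level ran from 17.6 CPM in Squam to 37.3 CPM in LSC cells, and over the 12 of dry eye from 16.4 CPM in TAC1* to 61.6 CPM in Wing* cells. Within Wing cells the ratio was 1.39 (1.32 to 1.46) and within Squam cells 1.47 (1.32 to 1.63), from 17.6 to 25.9 CPM, while TAC2 cells were at 32.5 and 25.6 CPM, a ratio of 0.788 (0.691 to 0.899). Free RNA was bounded by the upper limit of the UMIs per cell in Basal cells, where Krt10 had 656 and 468 UMIs. Subtracting that bound from the higher library alone took up the whole difference in Squam and in TAC2 cells. It left a ratio of 1.13 in Wing cells. Basal cells themselves stood at 24.4 and 23.7 CPM, so the bound can hold their own Krt10. Whether free RNA had a part in these differences therefore cannot be told from this bound. Krt1, the epidermal partner of Krt10, had 1245 and 1077 UMIs, or 6.50 and 5.20 CPM.

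**Figure D3:**
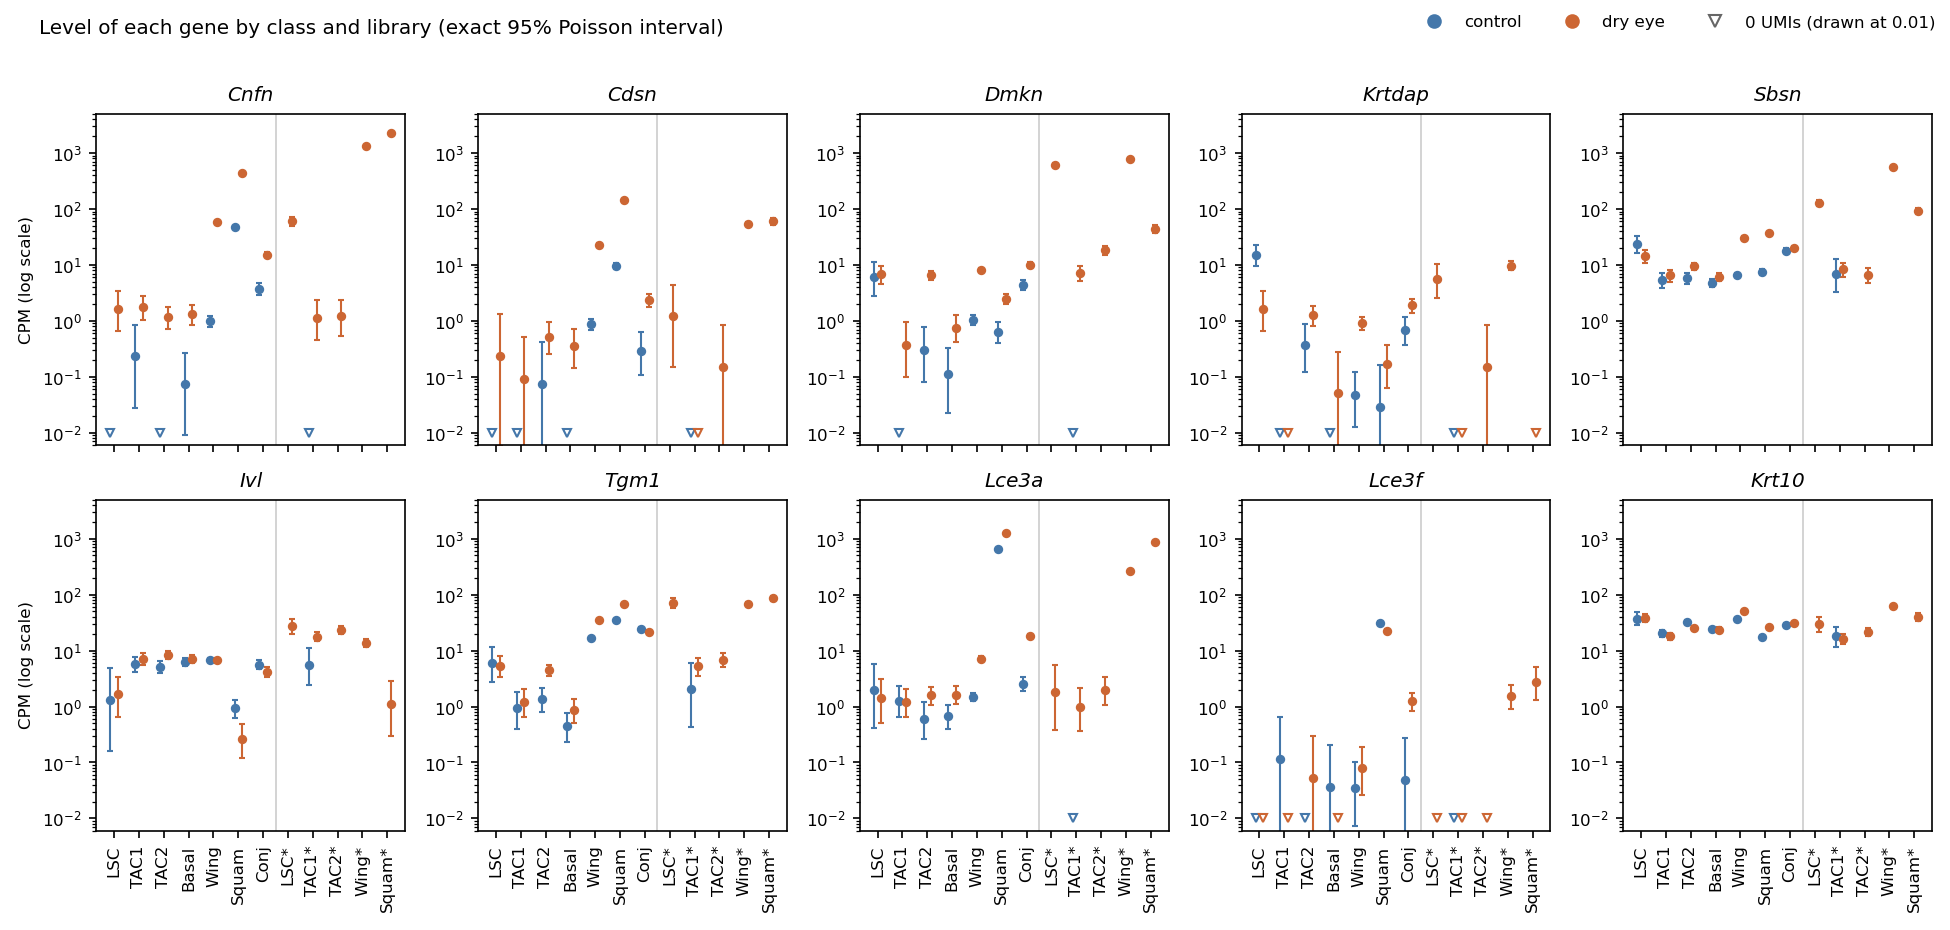
Level of each of the 10 genes in CPM (log axis) by class, starred classes to the right of the grey line, control in blue and dry eye in orange. Bars are exact 95% Poisson intervals, open triangles mark classes with 0 UMIs, and classes with under 50 cells in a library are not drawn. Cnfn, Cdsn, Lce3a and Lce3f peak in Squam cells among the unstarred classes, Ivl is lowest there, and Krt10 is nearly level.

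Across classes the genes differed in where the UMIs lay. Squam cells held 80.4% of the control and 67.8% of the dry eye UMIs of Cdsn. For Cnfn they held 77.8% and 34.6%, with the rest of the dry eye UMIs largely in Wing* and Squam* cells. Wing* cells made up 2.72% of the cells of the dry eye library and held the largest share of its Dmkn, Sbsn, Krtdap and Cnfn UMIs.

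**Figure D4:**
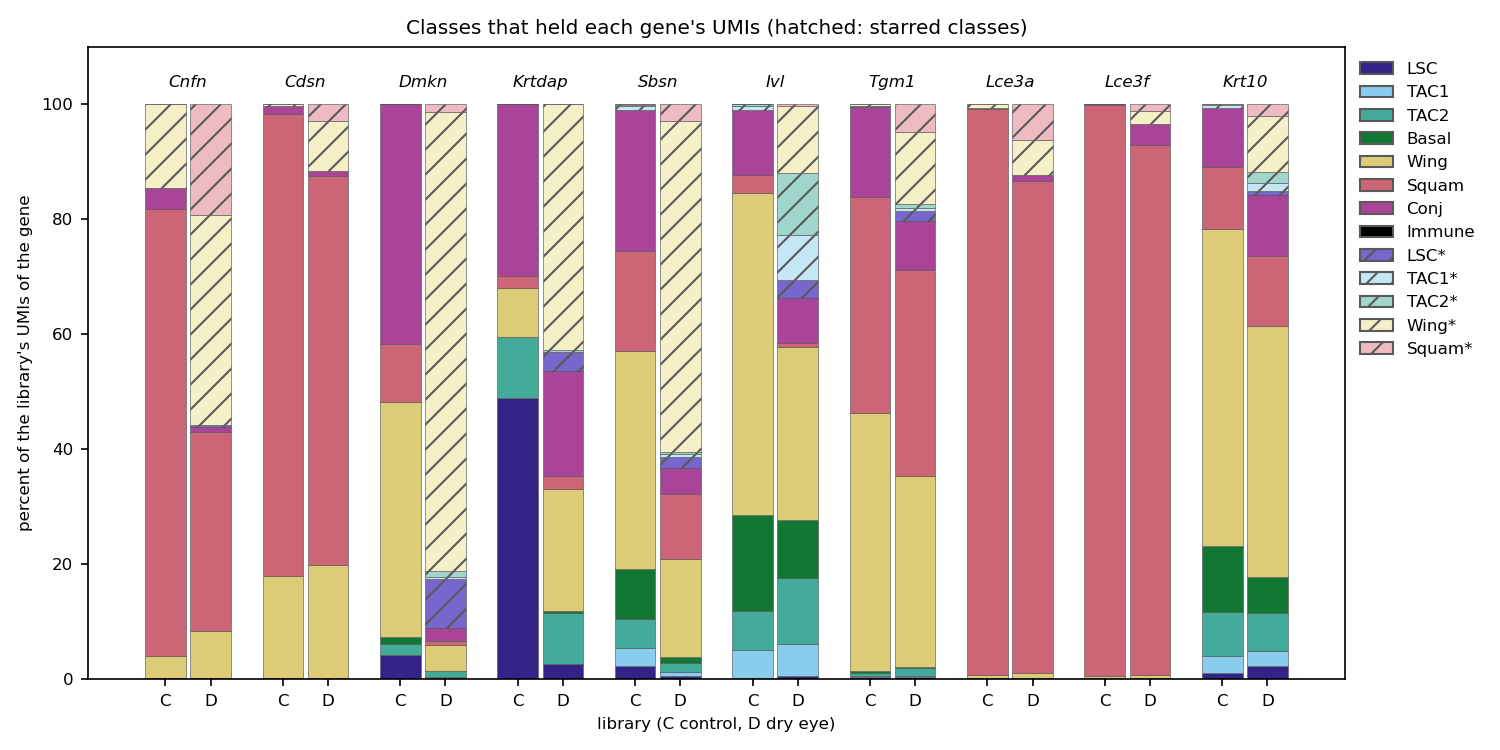
Percent of each gene's UMIs held by each class, one bar for control (C) and one for dry eye (D) per gene, starred classes hatched. Wing* takes 79.7% of the dry eye bar of Dmkn and 57.6% of that of Sbsn, while Squam takes 85.7% of the dry eye bar of Lce3a.

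Within classes, the genes were compared where a class had at least 100 cells in each library and the gene at least 50 UMIs over both. In Wing cells 7 of 9 genes passed the 2-fold limit upward (Cnfn, Cdsn, Dmkn, Krtdap, Sbsn, Lce3a and Tgm1), which 2.37% of all genes tested did. In Squam cells it was 4 of 8 (Cnfn, Cdsn, Dmkn and Sbsn), against 1.71%. In Conj cells it was 5 of 9 (Cnfn, Cdsn, Dmkn, Krtdap and Lce3a), against 0.837%. Without the 10 highest cells of each library, the Conj ratio of Dmkn was 1.64, and Krtdap in Conj went from 14 and 49 UMIs to 0 and 11. Cdsn in Conj and Krtdap in Wing had only 6 and 4 control UMIs. None of these could be left, against 28 and 12 in dry eye. TAC2 cells had 2 of 5 (Dmkn and Tgm1), against 1.28%, and Basal cells 1 of 4 (Lce3a, with 18 and 32 UMIs), against 0.64%. In TAC1* cells it was 1 of 3 (Ivl), against 6.31%, and it was 0 of 2 in LSC cells, against 0.947%, and 0 of 3 in TAC1 cells, against 0.611%. No member passed the 2-fold limit downward in any of these classes. Of all genes tested, 1.01% did so in Wing, 2.99% in Squam, 0.158% in Conj, 0.685% in TAC2, 0.46% in Basal, 5.3% in TAC1*, 1.13% in LSC and 0.19% in TAC1 cells.

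Some cells held several of the genes at once, and they were more numerous in dry eye. Thinning to 3000 UMIs drops shallower cells, 1094 of control and 784 of dry eye. Of the cells kept, 42 of 16371 control cells (0.257%) and 829 of 15636 dry eye cells (5.30%) held UMIs of 3 or more of the 10 genes. In Squam cells the shares were 1.14% (0.790% to 1.59%) and 15.7% (14.4% to 17.1%), and in Wing cells 0.0183% and 3.16%. They were highest in Wing* cells of dry eye, at 42.4% (37.8% to 47.2%), and in Squam* cells, at 28.8% (22.8% to 35.4%). After thinning no control cell held 5 or more, and a count of 0 allows up to 0.0183%, while 70 dry eye cells (0.448%) did. In unthinned counts 34 control cells (0.195%) and 737 dry eye cells (4.49%) held 5 or more. After thinning and without the starred classes, 41 control cells (0.253%) and 571 dry eye cells (4.11%) held 3 or more.

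**Figure D5:**
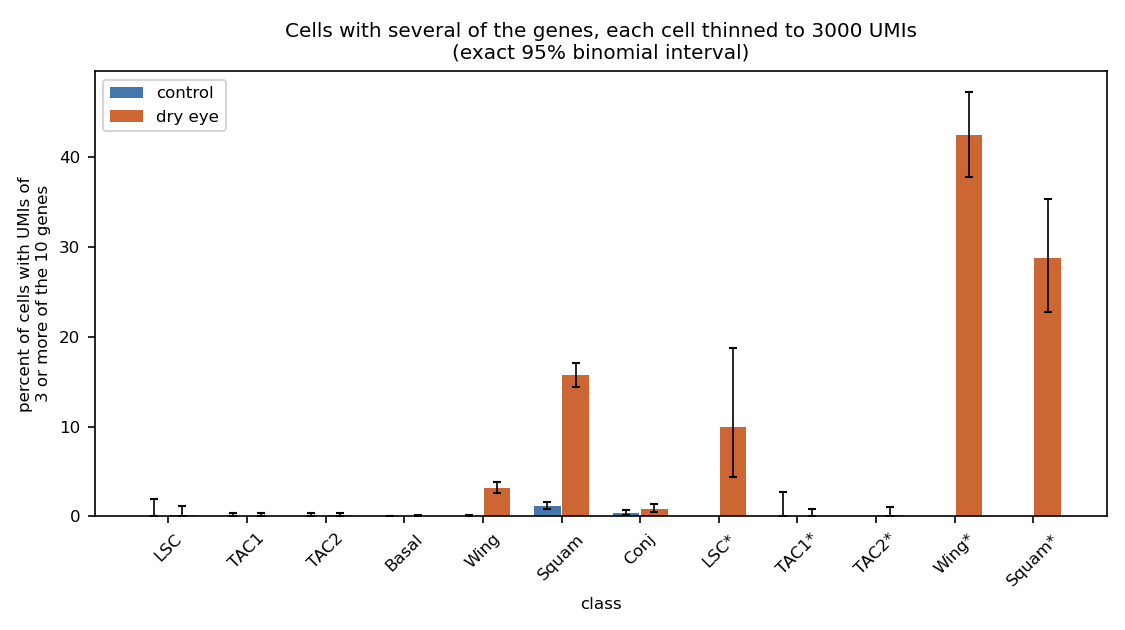
Percent of cells with UMIs of 3 or more of the 10 genes by class, each cell thinned to 3000 UMIs, with exact 95% binomial intervals. Control is blue and dry eye orange, and classes with under 50 cells in a library are left out. Wing* and Squam* of dry eye reach 42.4% and 28.8%, and Squam goes from 1.14% in control to 15.7% in dry eye.

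The pairs that shared cells differed between classes. Of the 443 thinned Wing* cells of dry eye, Dmkn was in 215 and Sbsn in 210, and 164 held both, 76.3% of the Dmkn and 78.1% of the Sbsn cells. Cnfn was in 201 of these cells, and 160 of them (79.6%) also held Sbsn. Without thinning, all 43 Krtdap cells of Wing* also held Dmkn, at a median depth of 23373 UMIs against 17483.5 in the class. Of the 2854 thinned Squam cells of dry eye, Cnfn was in 1034 and Cdsn in 658, and 394 held both, 38.1% of the Cnfn and 59.9% of the Cdsn cells. The thinned shares of Cnfn, Cdsn and Lce3a over all Squam cells are given above. Of the 43 Squam cells with Lce3f, 34 (79.1%) held Lce3a, whose sequence is partly shared.

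Genes outside the set were ranked by how alike their log2(CPM + 1) was to that of each member over the 20 class and library groups with at least 50 cells. These correlations are descriptions, since groups share libraries and some share marker genes. Over the 14 of these groups that were unstarred, r for the first gene named for each member lay between 0.84 and 0.99. The r of Dmkn with Ell2 went from 0.92 to 0.72. Cnfn was most like Il1f8 (Pearson r = 0.97), which encodes interleukin 36 beta, and next like Spink2 and S100a7a. Cdsn was most like Crct1 (r = 0.95), with S100a7a and Tbc1d10b next. Lce3a was most like its neighbour Lce3b (r = 0.98), whose 3' sequence is partly shared with other Lce3 genes, with Crct1 and Mirt1 next. Dmkn was most like Rab24 (r = 0.94), then Ell2 and Nucb2, and Sbsn most like Ccdc71l (r = 0.94), then Hs3st1 and Tmprss11b. Tgm1 was most like Rbms1 (r = 0.98), then Map2k4 and Pls3, and Ivl most like Fam104a (r = 0.92), then Lsm12 and Pfn1. Krt10 had no partner above r = 0.86 (Dyrk2, then Pim3 and Spast) and Krtdap none above 0.82 (Serpinb2, then Sult2b1 and Rc3h1). Lce3f was most like Errfi1 (r = 0.94), then Il4i1 and Lce3b. Among the members themselves, Cnfn and Cdsn (r = 0.93), Cdsn and Lce3a (r = 0.91) and Dmkn and Sbsn (r = 0.89) were alike, and Ivl and Lce3f ran opposite (r = -0.62).

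The rest of the pathway was described from lists of related genes, over all cells and against the same background of 3.02% higher. Of 12 other envelope protein genes with at least 100 UMIs, 4 were at least 2-fold higher in dry eye and 0 lower, with a median log2 ratio of 0.12. They were Lce3e (ratio 3.27), Lce3c (3.19), Crct1 and Lce3b, and 3 of the 4 are copies of the same family as Lce3a. Without the starred classes the count was 3, since Crct1 went from 2.27 to 1.78. The lowest of the list were Cst6, a protease inhibitor of the cornification pathway, at 196 and 153 CPM, a ratio of 0.780, and Kprp, at 0.790. Filaggrin (Flg) had 5 and 84 UMIs, under the minimum. Of the other transglutaminases neither was 2-fold apart: Tgm2 stood at 97.3 and 59.9 CPM, a ratio of 0.616, and Tgm5 at a ratio of 0.858.

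The partners of Cdsn in the corneodesmosome did not share its difference. Of 5 with enough UMIs, 0 were 2-fold higher or lower: Jup had a ratio of 1.13, Pkp1 1.12 and Dsp 0.914, and the desmosomal cadherin Dsg1a was at 317 and 195 CPM, a ratio of 0.615. The other keratins of cornifying layers gave 0 of 4, from Krt78 at 1.26 and Krt80 at 1.11 to Krt1 at 0.800 and Krt77 at 0.684.

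Among kallikreins, other envelope proteases and their inhibitors, 6 of 18 were at least 2-fold higher and 0 lower, with a median log2 ratio of 0.46. Klk13 had 0 UMIs in control and 118 in dry eye, Klk12 had 14 and 289, a ratio of 19.1 (11.2 to 35.4), and Klk7, a protease known to cut corneodesmosin, had 15 and 200. Spink5, which encodes an inhibitor of several kallikreins, was higher as well, at 36.4 and 128 CPM. The lowest were Spint2, at a ratio of 0.844, and Ctsc, at 0.880. Without the starred classes 5 of the list were higher, since Klk8 went from 2.05 to 1.83. Among lipid barrier enzymes and transporters it was 3 of 13 higher and 0 lower, and 2 higher without the starred classes, where Cyp4f39 went from 2.03 to 1.78. Elovl4, which makes very long chain fatty acids, had 27 and 525 UMIs, a ratio of 17.99 (12.2 to 27.6) that was 11.2 (7.57 to 17.4) without the starred classes, and the lipoxygenase gene Alox12b 29 and 444, a ratio of 14.2 (9.72 to 21.4), while Lipk (0.782) and Smpd1 (0.851) were lowest. Of 18 regulators of terminal differentiation 1 was 2-fold higher, Maf, with 77 and 312 UMIs and a ratio of 3.75 (2.91 to 4.87), or 2.32 (1.76 to 3.08) without the starred classes. Prdm1 came next at 1.64, and Hopx (0.775) and Pou2f3 (0.518, from 5.28 to 2.74 CPM) were lowest.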

How the data were processed

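Corneal epithelium was released enzymatically, dissociated with trypsin and made into 2 libraries with a 10x Genomics 3' kit, per the labels' protocols. Per the submitters' processing notes, which give neither role nor order, Cell Ranger 6.0.1, Seurat 4 and the build mm10 were used. The authors deposited raw UMI counts for 17891 genes and 33885 cells (0 values were not whole), with the library and class of each cell. The rules for filtering and classing cells are not given in the sources used here.

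Counts were summed per library and class and divided by the class total. Ratios carry exact 95% Clopper-Pearson intervals, levels exact Poisson intervals. Genes needed 100 UMIs over both libraries (50 within a class), and in the text a count of 0 was given an upper limit of 3 counts, while intervals drawn or compared between classes are exact. A gene was called at 2-fold or 0.5-fold. Doublets were not called and free RNA was not removed. As a check within classes, an upper bound on free RNA was subtracted from the higher library only. That bound came from the class with the fewest UMIs of the gene per cell in that library, which differed between genes. A ratio that would have turned direction was counted as taken up whole. All 10 members are described. From each pathway list the 2 highest and 2 lowest ratios are named, and Flg, Lor, Krt2, Crct1, Lce3b, Klk7 and Spink5 were added after their values were seen. Members and lists were chosen with earlier results of these data known. Intervals were checked on simulated counts. Python 3.11.15, scipy 1.17.1 and edgeR 4.0.16 (TMM scaling only) were used.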

Additional observations from a re-analysis of the deposited data

Results flagged for a closer look

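Among genes with at least 50 UMIs in a class and classes with at least 100 cells in each library, the ratio of dry eye over control lay under 1 in one class and above 1 in another for 4 members, with both counting intervals clear of 1. Each class rests on 1 library per group, and the difference between classes was not tested. Sbsn had a ratio of 0.614 (0.399 to 0.958) within LSC cells and 4.95 (4.33 to 5.68) within Squam cells. Krt10 had 0.788 (0.691 to 0.899) within TAC2 cells and 1.47 (1.32 to 1.63) within Squam cells. Ivl had 0.746 (0.568 to 0.979) within Conj cells and 3.21 (1.57 to 7.63) within TAC1* cells. Tgm1 had 0.872 (0.772 to 0.987) within Conj cells and 3.28 (1.95 to 5.79) within TAC2 cells. With the bound on free RNA subtracted, the whole difference was taken up for Krt10 in TAC2 and in Squam cells and for Ivl in Conj cells. Sbsn in LSC cells was at 0.848. The bound came from Basal cells for Krt10 and Sbsn and from LSC cells for Ivl. It can hold transcripts of those cells' own, so the part of free RNA cannot be told from it. Below 50 UMIs, Krtdap had 0.107 (0.0388 to 0.258) within LSC cells, where 1 control cell held 19 of 23 UMIs, and Ivl had 0.280 (0.118 to 0.600) within Squam cells. Within Wing cells Krtdap had 19.2 (7.08 to 72.7), from 4 and 57 UMIs. Without the 10 highest cells of each library, 0 and 12 of those were left.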

How the results depend on the processing

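The count of members at least 2-fold higher over all cells was 6 and ran from 5 to 7 over the alternatives, with 0 lower in each. It was 5 with dry eye classes weighted to the control shares of cells, with the mean over cells, and without the 5% of cells with most UMIs, where Lce3a had ratios of 1.79, 1.71 and 1.98, and 5 of the 7 members with 20 CPM in one library. The median log2 ratio of 1.74 was 1.35 without starred classes, 1.25 with control class shares, 1.98 without the 10 highest cells of each gene, 1.94 without the highest cell, 1.51 without the 5% of cells with most UMIs, 1.49 as a mean over cells, 2.81 for those 7 members, and 1.37 without Wing*. Of those 7 members, Cnfn, Cdsn, Dmkn, Sbsn and Tgm1 reached 20 CPM in the dry eye library only. That setting thus picks genes that are high in dry eye, and its count and median are no check on the result. Leaving out the highest cell, leaving out Wing* and the r over unstarred groups were chosen after seeing the data. TMM and median-of-ratios scaling moved the median of all genes from -0.07 to -0.01 and -0.00.

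The direction turned for Ivl over all cells without starred classes (0.988), and for Lce3f over all cells without 10 cells (2.03), 1 cell (1.14) or the 5% of cells with most UMIs (1.31), and within Squam without 10 cells (1.84) or 1 cell (1.13). Without 10 cells the counts were 1 in TAC2, 2 in Conj and 0 in TAC1*, mostly because no control UMI was left and no ratio could be formed. Dmkn in TAC2, Cdsn in Conj, Ivl in TAC1* and Krtdap in Wing had 4, 6, 8 and 4 control UMIs. Leaving out 10 control cells was thus bound to leave 0 there, so this check cannot decide on those ratios. The dry eye UMIs left were 69, 28, 81 and 12. Krtdap in Conj went from 14 and 49 UMIs to 0 and 11, while Dmkn in Conj was at 1.64. With the bound on free RNA subtracted the count was 0 in Basal, where the bound for Lce3a came from LSC cells. The differences of Krt10 in TAC2 and Squam, Sbsn in TAC2 and Ivl in Conj were taken up whole. Those bounds came from Basal cells for Krt10 and Sbsn and from LSC cells for Ivl, and can hold those cells' own transcripts. Cells with 3 or more members were 0.0867% of control and 2.66% of dry eye cells when thinned to 1500 UMIs, and 3.17% and 16.2% without thinning. Without Wing* alone the ratio of Dmkn was 10.7 and that of Sbsn 3.17. The cause of these shifts was not tested. No paired analysis was possible because each group was 1 pooled library with no replicate number. Depth limits Krtdap, with 47 control UMIs, most.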
